A study of Homo sapiens with 12 samples.

Results

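Interleukin and interleukin receptor genes were followed in 2 neoplastic human B-cell lines, MEC1 and JVM2, at low and at high levels of UGT2B17, the enzyme that conjugates steroids and other lipophilic molecules to glucuronic acid. The genes were taken by name, as every row whose symbol begins with IL and a number, and IL6ST, the gp130 subunit, was left out of the count and described with the pathway. Of 23533 genes listed in either line, 60 were members: 56 of 22441 in MEC1 and 44 of 17144 in JVM2, with 40 in both. The symbols also took in genes that are not cytokines or receptors, such as the enzyme IL4I1, the pseudogenes IL9RP3 and IL9RP4, and the antisense transcripts IL10RB-AS1, IL12A-AS1 and IL21R-AS1. A filter on low counts left 42 members in MEC1 and 32 in JVM2 for testing, of which 27 were tested in both lines. The others were too low to test, 14 in MEC1 with 11 to 52 counts summed over the 6 libraries and 12 in JVM2 with 10 to 52. They include the cytokines IL11, IL13, IL17C, IL24 and IL34 and the receptor IL31RA in MEC1, IL4, IL17B and IL27 in JVM2, and in both lines IL6R, the receptor for IL-6.

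Both 2B17 populations were stable transfectants under blasticidin, with the coding sequence of UGT2B17 on a pcDNA6 plasmid. JVM2-CTRL cells had received the empty plasmid and grew under the same antibiotic. MEC1-CTRL cells were a stable shRNA knock-down of UGT2B17 kept in puromycin, so that in MEC1 the transgene, the knock-down, the vector and the antibiotic cannot be told apart. Each of the 4 groups had 3 biological replicates, and since nothing says that they came from separate transfections, P-values measure the spread between these samples only. The lines also differed in depth, with 31762649 to 37744991 counts per library in MEC1 and 8809179 to 11231330 in JVM2, and the sequencing was split over 2 sites that were not matched to samples in the sources used here. Differences between the lines cannot be told apart from these. Replicates of one group differed by 2.24 to 8.58 times the variance of counting error, as a mean chi-square per gene, and JVM2-2B17 replicate 2 stood apart from the other two of its group (8.35 and 8.58, against 2.24 between them). MEC1-CTRL replicate 3 stood apart in the same way from replicates 1 and 2 (8.41 and 6.77, against 2.50 between those). As bulk libraries, the samples cannot tell fewer cells expressing a gene from less RNA per cell. UGT2B17 counts were 447, 371 and 346 in MEC1-CTRL and 766, 673 and 637 in MEC1-2B17, and 299, 281 and 258 in JVM2-CTRL and 389, 402 and 315 in JVM2-2B17. The 2 arms did not overlap in either line. As mean CPM, UGT2B17 went from 10.98 to 21.1 in MEC1 (1.92-fold, log2 fold change 0.94 ± 0.07 SE). In JVM2 it went from 27.7 to 38.7 CPM (1.39-fold, log2 fold change 0.48 ± 0.11 SE). All JVM2-CTRL libraries (26.2 to 29.7 CPM) lay above all MEC1-2B17 libraries (20.1 to 22.7 CPM). Low and high UGT2B17 thus refer to the arms within a line, and the contrast was smaller in JVM2. All 5 B-cell markers examined (CD22, CD79A, CD79B, MS4A1 and PAX5) were expressed in both lines. They summed to between 1839 and 2093 CPM in MEC1 and to between 1141 and 1368 CPM in JVM2. Markers of T and NK cells summed to at most 6.11 CPM in any library. Of 6 myeloid markers 5 were listed in MEC1 and 3 in JVM2. Only ITGAM rose, in both lines, while CSF1R fell in MEC1 (log2 fold change -0.71 ± 0.27 SE, edgeR adjusted P = 0.041). The myeloid sum was 2.35–2.92 CPM in MEC1-CTRL, 4.74–5.30 in MEC1-2B17, 5.40–6.57 in JVM2-CTRL and 11.1–13.8 in JVM2-2B17. The part of these markers in the results below was not tested.

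Interleukins are secreted proteins by which immune cells instruct each other. Most bind receptors built from a private chain and a shared one. The gamma chain (IL2RG) serves IL-2, IL-4, IL-7, IL-9, IL-15 and IL-21, and the beta common chain (CSF2RB) serves IL-3 and IL-5. IL12RB1 serves IL-12 and IL-23, and IL10RB serves IL-10 and part of its family. These receptors have no kinase of their own and signal through bound JAK kinases and STAT transcription factors. The IL-1 and IL-18 receptors are of another build, and signal through MYD88 and IRAK kinases to NF-kappaB. In B cells IL-4, IL-10 and IL-21 steer activation and antibody class, and IL-7 supports early B-lineage cells.

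In the control cells 4 of the 5 leading receptor chains, ranked as CPM per kb of exon, were the same in both lines. In MEC1-CTRL the order was IL18R1 at 44.8 ± 2.08, IL21R at 43.5 ± 0.582, IL2RB at 37.1 ± 0.894, IL2RG at 22.6 ± 0.552 and IL27RA at 20.7 ± 0.243 (mean ± SD, n = 3, as for all means here). The first 2 of these lay within their spread of each other. In JVM2-CTRL the order was IL21R at 34.6 ± 1.23, IL2RG at 26.0 ± 2.08, IL27RA at 18.3 ± 0.641, IL2RB at 15.6 ± 0.774 and IL12RB1 at 6.38 ± 0.321, and IL10RB (5.04 ± 0.147) and IL4R (5.03 ± 0.193) below them were equal within their spread. IL18R1, which leads in MEC1, lay at 0.154 ± 0.0196 CPM per kb in JVM2-CTRL. Other genes on the same strand cover 51.3% of the IL2RG exon bases and 21.6% of those of IL10RB. How far this overlap altered their levels was not tested.

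**Figure D1:**
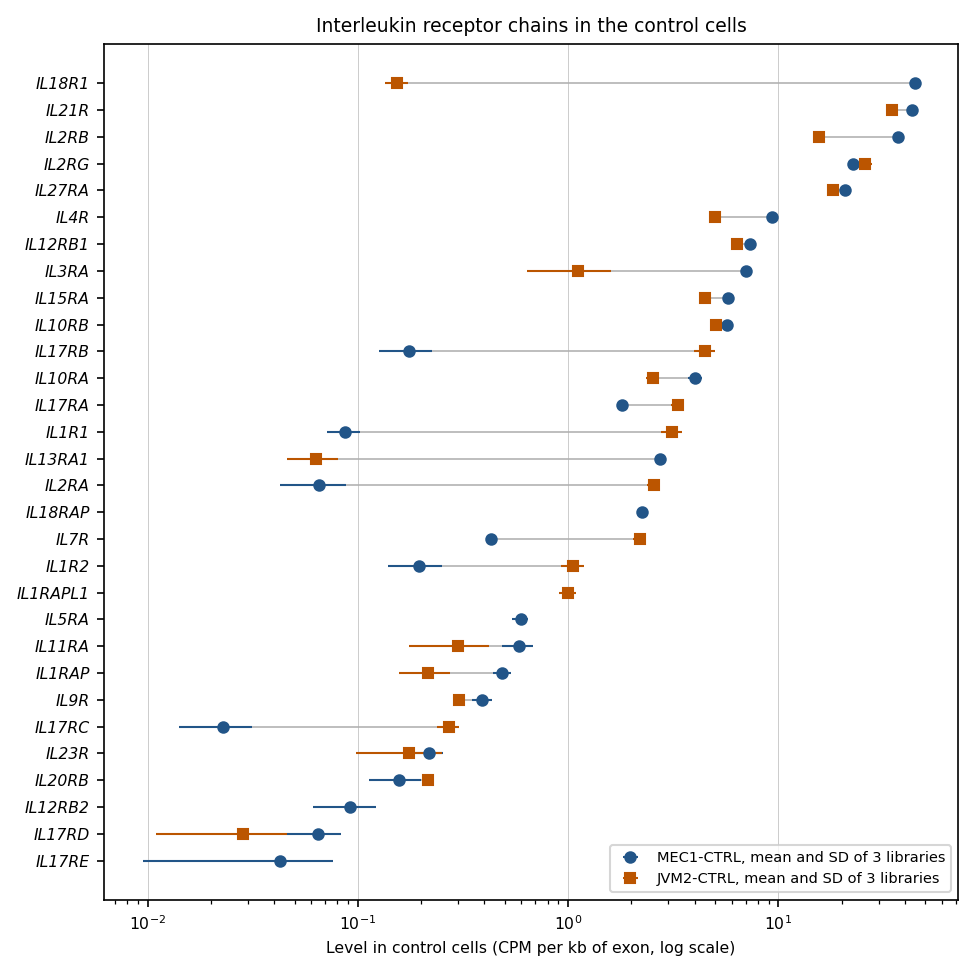
Level of each interleukin receptor chain in the control cells of both lines, as CPM per kb of exon on a log axis; points are means and bars SDs of 3 libraries. Chains such as IL21R, IL2RG, IL27RA and IL12RB1 lie close together in the 2 lines, whereas IL18R1 and IL13RA1 lie far to the right in MEC1-CTRL and IL1R1, IL17RB and IL2RA far to the right in JVM2-CTRL.

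Which cytokine axes differed between the control populations, 1 with the knock-down and 1 with the empty plasmid, was tested in a joint fit of all 12 libraries, in which 39 members could be tested. Of these, 26 differed between MEC1-CTRL and JVM2-CTRL, 15 higher and 11 lower in MEC1-CTRL, against 78.3% of all genes tested (39.6% higher and 38.7% lower). Among the 27 members tested within both lines 20 differed (74.1%, 12 of them higher in MEC1-CTRL), against 80.8% of such genes (37.9% higher in MEC1-CTRL), so the members differed about as often as genes at large. Scaling by library size alone moved the median log2 difference of all genes from 0.04 to 0.20 and gave 21 members higher and 10 lower.

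Receptor chains for IL-18, IL-13 and IL-3 and the cytokine IL10 were higher in MEC1-CTRL. IL18R1, the ligand-binding chain for IL-18, was at 202 ± 9.36 CPM in MEC1-CTRL and 0.694 ± 0.0881 CPM in JVM2-CTRL (log2 difference 7.999 ± 0.13 SE, edgeR adjusted P = 4.8e-22). Its accessory chain IL18RAP stood at 6.65 ± 0.251 CPM in MEC1-CTRL and is not listed for JVM2. IL13RA1, which joins IL4R in the receptor for IL-13, was at 12.8 ± 0.644 CPM in MEC1-CTRL and, in JVM2-CTRL, at 3, 4 and 2 counts. The anti-inflammatory cytokine IL10 differed by 4.39 ± 0.18 on the log2 scale (22.0 against 0.942 CPM, adjusted P = 4e-15) and IL3RA, the IL-3 binding chain, by 2.50 ± 0.16 (12.02 against 1.91 CPM, adjusted P = 5.6e-12).

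IL1R1, IL1R2, IL1A, IL2RA, IL17RB and IL7R were higher in JVM2-CTRL. IL1R1, the signalling receptor for IL-1, was at 22.2 ± 2.54 CPM in JVM2-CTRL and 0.620 ± 0.113 CPM in MEC1-CTRL (log2 difference of MEC1-CTRL over JVM2-CTRL -5.33 ± 0.14, adjusted P = 3.3e-18), and IL1R2 differed by -2.57 ± 0.26 (adjusted P = 1.4e-08). The ligand IL1A, an alarmin, had 83, 96 and 71 counts in JVM2-CTRL and 2, 3 and 6 in MEC1-CTRL, although the MEC1 libraries were deeper. Of the other IL-1 genes, IL1RAP, the accessory receptor chain, was higher in MEC1-CTRL (0.98 ± 0.18, adjusted P = 4.2e-05) and IL1B did not pass (-0.80 ± 0.41, adjusted P = 0.084). IL2RA, which raises the affinity of the IL-2 receptor, was at 10.2 CPM in JVM2-CTRL against 0.258 in MEC1-CTRL (-5.46 ± 0.23, adjusted P = 7.9e-15). The signalling chain IL2RB went the other way, at 114 CPM in JVM2-CTRL against 270 in MEC1-CTRL (1.08 ± 0.09, adjusted P = 4e-10). IL17RB, the receptor for IL-25, was at 13.6 CPM in JVM2-CTRL against 0.534 in MEC1-CTRL (-4.82 ± 0.18, adjusted P = 1.1e-15). IL7R differed by -2.51 ± 0.12 (2.60 CPM in MEC1-CTRL against 13.2 in JVM2-CTRL, adjusted P = 5.9e-14). Among shared chains, log2 differences were 0.03 ± 0.07 for IL12RB1 (adjusted P = 0.68), 0.00 ± 0.07 for IL10RB (adjusted P = 0.95) and -0.37 ± 0.12 for IL2RG (adjusted P = 0.0086). They were -1.77 ± 0.23 for CSF2RB (adjusted P = 4.9e-07) and 0.57 ± 0.05 for IL6ST (adjusted P = 3.4e-09). The IL2RG call was lost with DESeq2 (adjusted P = 0.067), with scaling by library size alone (0.12) and without JVM2-CTRL replicate 3 (0.051).

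Arms were then compared within each line, to describe which interleukin genes were higher or lower at high UGT2B17. In MEC1, 24 of 42 members passed the threshold (57.1%, 8 higher and 16 lower), against 41.7% of all genes tested. The 16 lower made up 38.1% of members, against 21.6% of genes, and the median log2 fold change of the members was -0.15 against 0.00 for all genes. In JVM2, 16 of 32 passed (50.0%, 9 higher and 7 lower), against 29.3%, with a median of -0.08 against 0.00. Counting only log2 changes of at least 1, 4 members passed in MEC1 (9.52%, against 5.30% of genes) and 7 in JVM2 (21.9%, against 6.23%). Without JVM2-2B17 replicate 2 the JVM2 count was 18. The members that did not pass ran from -0.86 to 0.99 on the log2 scale in MEC1 (18 members, lowest adjusted P = 0.058) and from -0.46 to 0.65 in JVM2 (16 members, lowest adjusted P = 0.062).

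By family, 7 of 11 members tested of the gamma chain group were lower in MEC1-2B17 and 0 higher (IL15, IL15RA, IL2RG and IL4 did not pass). The 7 include IL13RA1, which was listed with this group although IL-13 is not served by the gamma chain. In the IL-12 family 4 of 6 were higher and 0 lower. Of all 16581 genes tested in MEC1, 3324 were higher and 3585, or 21.6%, lower, and in JVM2 14.1% were higher and 15.3% lower. In JVM2 the same groups were mixed, with 3 higher and 2 lower of 9 gamma chain members and 1 higher and 2 lower of 5 in the IL-12 family. The IL-1 family gave 1 higher and 3 lower of 7 in MEC1, and 3 higher and 2 lower of 7 in JVM2. In the IL-10 family 1 was higher and 3 lower of 5 in MEC1, and 1 was lower of 3 in JVM2. No IL-17 family member passed the threshold by edgeR's quasi-likelihood test or by DESeq2 (0 of 5 in MEC1 and 0 of 3 in JVM2). At an unadjusted P below 0.05 edgeR gave 2 in MEC1, IL17RB and IL17RE, and 0 in JVM2, and DESeq2 0 in both. Log2 fold changes there ran from -0.86 to 0.99 and from -0.33 to -0.14.

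**Figure D2:**
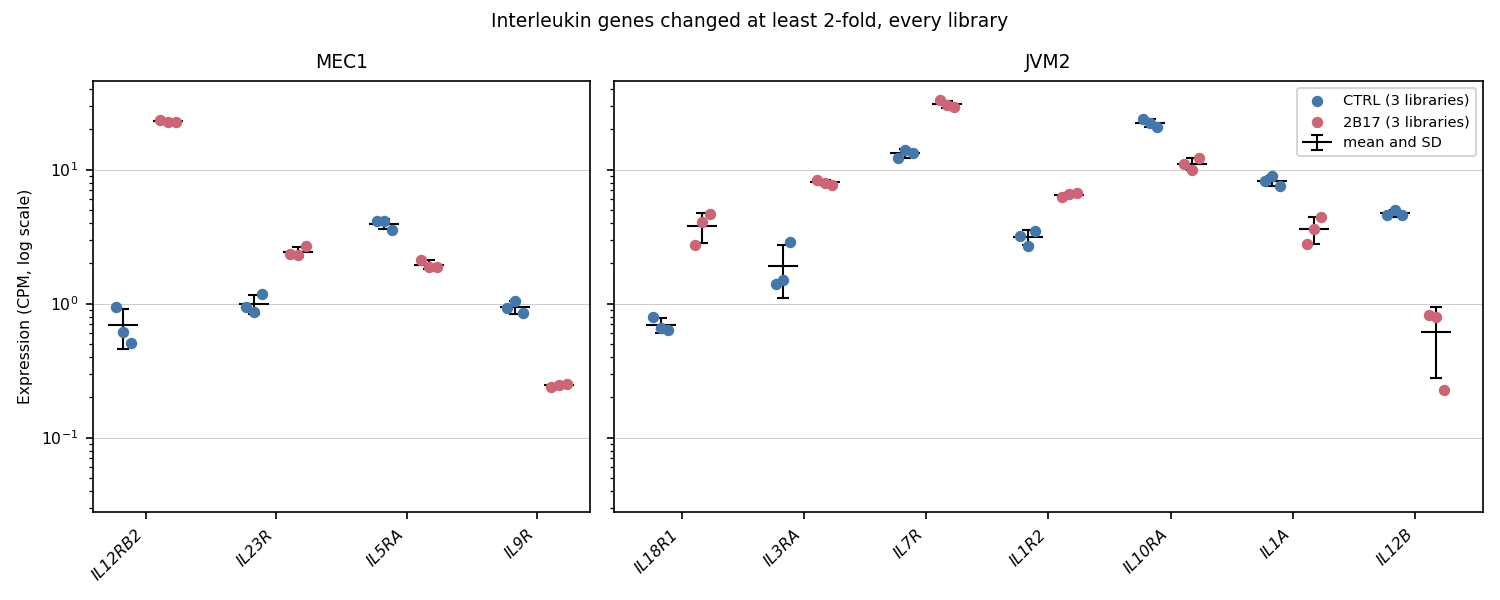
Expression of the members past the threshold with a log2 change of at least 1, in each of the 3 libraries per arm, as CPM on a log axis; bars are the mean and SD. In MEC1 IL12RB2 and IL23R are higher and IL5RA and IL9R lower in 2B17 cells. In JVM2 IL18R1, IL3RA, IL7R and IL1R2 are higher and IL10RA, IL1A and IL12B lower. Arms do not overlap for the genes shown, which was not set against the share of all genes.

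The largest rise of any member was that of IL12RB2 in MEC1, the chain that pairs with IL12RB1 to give the high-affinity IL-12 receptor and recruits STAT4 through JAK2. It lies on chromosome 1 (67307364 to 67398724, GRCh38, plus strand). Counts were 36, 21 and 17 in MEC1-CTRL and 792, 740 and 716 in MEC1-2B17, which gave a log2 change of 5.02 ± 0.12 (adjusted P = 4.9e-16). The same gene is not listed in JVM2. IL23R, which ends 47.4 kb upstream (67138907 to 67259979), encodes the chain that pairs with IL12RB1 to bind IL-23. It stood at 0.946, 0.871 and 1.17 CPM in MEC1-CTRL and at 2.34, 2.30 and 2.68 CPM in MEC1-2B17 (log2 fold change 1.29 ± 0.17, adjusted P = 5.1e-06). In JVM2 IL23R was under the filter, at 12, 6 and 6 counts in CTRL and 3, 6 and 3 in 2B17 cells. The difference of the effects, MEC1 minus JVM2, was 2.21 ± 0.52 on the log2 scale (adjusted P = 0.0024).

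IL12RB1 and IL23A, further genes of the IL-12 and IL-23 axis, gave smaller changes. IL12RB1, the shared chain, was at 31.8, 30.9 and 31.6 CPM in MEC1-CTRL and at 33.9, 34.9 and 34.5 in MEC1-2B17 (log2 fold change 0.13 ± 0.05, adjusted P = 0.03). This small rise was lost with DESeq2 (adjusted P = 0.069) and without any of 4 libraries, both MEC1-CTRL replicates 1 and 2 and MEC1-2B17 replicates 2 and 3 (adjusted P up to 0.11). In JVM2 the chain fell from 28.1, 25.8 and 28.3 to 17.8, 20.3 and 20.8 CPM (-0.48 ± 0.09, adjusted P = 0.002), and the effects differed between lines by 0.62 ± 0.10 (adjusted P = 4.3e-05). IL23A, the p19 subunit that with the IL12B product forms IL-23, rose from 1.72 ± 0.354 to 2.36 ± 0.116 CPM in MEC1 (0.46 ± 0.16, adjusted P = 0.029). The IL23A call was lost with DESeq2 (0.089) and without MEC1-CTRL replicate 1 or 3 or MEC1-2B17 replicate 1 or 3 (adjusted P up to 0.13).

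IL12B, the p40 subunit of IL-12 and IL-23, was the largest fall among members in JVM2. The gene (chromosome 5, 159314780 to 159330863, minus strand) had 46, 54 and 43 counts in JVM2-CTRL and 9, 7 and 2 in JVM2-2B17. These correspond to 4.58, 5.03 and 4.56 CPM against 0.814, 0.787 and 0.226 CPM, and a log2 fold change of -2.90 ± 0.30 (adjusted P = 1.6e-05). It is not listed in MEC1. IL12A, the p35 subunit, did not pass in either line, with -0.17 ± 0.12 in MEC1 and 0.20 ± 0.20 in JVM2. IL27RA, the receptor for IL-27, rose in JVM2 from 54.0 ± 1.89 to 67.4 ± 2.42 CPM (0.32 ± 0.06, adjusted P = 0.0028). The difference of its effects, MEC1 minus JVM2, was -0.32 ± 0.07 (adjusted P = 0.0024).

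Among gamma chain receptors IL7R moved furthest in opposite directions. The gene encodes the alpha chain shared by the IL-7 and TSLP receptors (chromosome 5, 35852695 to 35879603, plus strand). In MEC1 it fell from 2.68, 2.61 and 2.50 CPM to 1.75, 1.25 and 1.26 CPM (-0.87 ± 0.16, adjusted P = 0.00022). In JVM2 it rose from 12.1, 14.1 and 13.3 CPM to 32.8, 30.5 and 29.1 CPM (1.23 ± 0.10, adjusted P = 1.4e-06). Arms did not overlap in either line, and the effects differed by -2.09 ± 0.18 (adjusted P = 1.4e-08). The ligand IL7 went the same way as its receptor in each line: 12.04, 11.9 and 11.8 CPM against 9.00, 9.21 and 7.69 in MEC1 (-0.46 ± 0.08, adjusted P = 9.7e-05), and 7.46, 10.5 and 9.64 CPM against 12.5, 14.9 and 11.9 in JVM2 (0.50 ± 0.15, adjusted P = 0.021). The JVM2 call of IL7 was lost without JVM2-CTRL replicate 1, the lowest of its arm (log2 fold change 0.37, adjusted P = 0.089). The effects on IL7 differed by -0.96 ± 0.16 (adjusted P = 0.00011). An opposite-strand gene, ZC2HC1A, covers 9.5% of the IL7 exon bases, and whether the counting used strand is not given in the sources used here.

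IL4R, the receptor chain for IL-4 and IL-13, gave small changes of opposite sign. It was at 54.8, 54.4 and 55.3 CPM in MEC1-CTRL and 51.6, 46.6 and 51.4 in MEC1-2B17 (-0.14 ± 0.05, adjusted P = 0.023). In JVM2 it was at 30.4, 30.0 and 28.3 CPM against 37.0, 31.5 and 40.1 (0.29 ± 0.09, adjusted P = 0.036). The MEC1 call was lost without MEC1-2B17 replicate 2 (adjusted P = 0.17), and the JVM2 call with DESeq2 (0.064) and without any one library other than JVM2-2B17 replicate 2 (up to 0.13). The difference of effects, -0.42 ± 0.10, passed the test (adjusted P = 0.0027).

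IL21R, the most abundant gamma chain partner per kb in both lines, was one of 3 members that went the same way in both. It fell from 234, 240 and 237 CPM to 209, 186 and 200 CPM in MEC1 (-0.26 ± 0.04, adjusted P = 4.3e-05) and from 190, 195 and 182 CPM to 168, 149 and 165 CPM in JVM2 (-0.23 ± 0.06, adjusted P = 0.015). The JVM2 call was lost without JVM2-CTRL replicate 2 (adjusted P = 0.076). The 2 effects differed by -0.02 ± 0.08 (adjusted P = 0.86). Its antisense neighbour IL21R-AS1 shares 23.3% of the IL21R exon bases.

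The rest of the gamma chain group moved in one line or in neither. IL9R, the receptor for IL-9, showed the largest fall in MEC1, from 35, 36 and 28 counts to 8, 8 and 8 (0.936 ± 0.102 against 0.245 ± 0.00769 CPM, log2 fold change -1.92 ± 0.27, adjusted P = 1.3e-05). It lies in the second pseudoautosomal region (X, 155997696 to 156010817) and has near-identical pseudogenes, so its reads may be split between copies. The pseudogene IL9RP3 stood at 0.914 CPM in MEC1-CTRL and did not pass. In JVM2 IL9R was under the filter, at 7, 8 and 7 against 9, 2 and 7 counts. The difference of effects was -1.69 ± 0.52 (adjusted P = 0.017), lost without JVM2-2B17 replicate 1 (0.11) or 3 (0.064).

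IL2RB, the signalling chain for IL-2 and IL-15, fell in MEC1 from 270 ± 6.51 to 223 ± 11.3 CPM (-0.28 ± 0.04, adjusted P = 1.2e-05) and IL13RA1 from 12.8 ± 0.644 to 9.72 ± 0.685 CPM (-0.39 ± 0.08, adjusted P = 0.00032). IL2RG itself did not pass in MEC1 (0.05 ± 0.04) or in JVM2 (-0.38 ± 0.17, adjusted P = 0.12), where JVM2-2B17 replicate 2 stood apart at 35.3 CPM against 69.9 and 57.7 CPM in the other two. IL15, a cytokine that sustains lymphocytes, went from 8.91 ± 0.722 to 6.54 ± 0.903 CPM in JVM2 (-0.45 ± 0.14, adjusted P = 0.034). That call was lost with DESeq2 (0.13) and without any one library other than JVM2-2B17 replicate 2 (up to 0.13). IL2RA, under the filter in MEC1, had 8, 7 and 12 counts in MEC1-CTRL and 1, 3 and 0 in MEC1-2B17, at least 2.82-fold lower against a floor of 3 counts per library. The floor covers counting error only. In JVM2 IL2RA did not pass (-0.41 ± 0.15, adjusted P = 0.062).

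**Figure D3:**
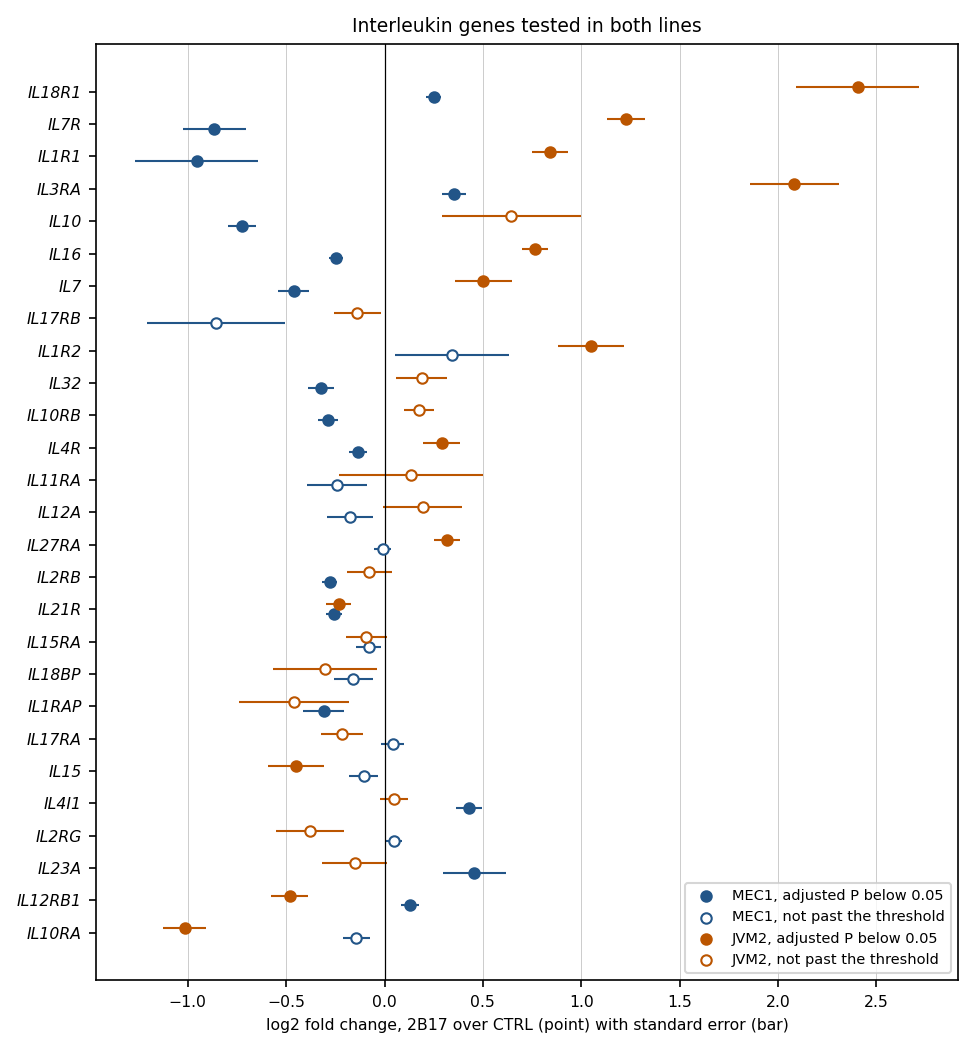
Log2 fold change of 2B17 over CTRL cells in MEC1 (blue) and JVM2 (orange) for the 27 members tested in both lines, ordered by the difference between lines; bars are standard errors and filled points passed the threshold. IL18R1, IL7R, IL1R1 and IL3RA at the top are higher in JVM2 than in MEC1, and IL10RA at the bottom is lower, while the points of IL21R and IL15RA nearly coincide.

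IL3RA and IL18R1 rose in both lines, and by more in JVM2. IL3RA, the alpha chain of the IL-3 receptor also known as CD123, rose from 12.09, 11.96 and 12.01 CPM to 15.7, 15.1 and 15.2 CPM in MEC1 (0.35 ± 0.06, adjusted P = 0.00014). In JVM2 it rose from 1.39, 1.49 and 2.86 CPM to 8.41, 7.98 and 7.68 CPM (2.08 ± 0.22, adjusted P = 2.2e-05). The 2 effects differed by -1.73 ± 0.21 (adjusted P = 1.8e-06). IL3RA lies in the first pseudoautosomal region (X, 1336616 to 1382689), so reads can match both sex chromosomes of the reference.

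IL18R1 (chromosome 2, 102311529 to 102398777) rose from 209, 205 and 191 CPM to 238, 245 and 236 CPM in MEC1 (0.25 ± 0.04, adjusted P = 3.4e-05). In JVM2 it rose from 8, 7 and 6 counts to 30, 36 and 41 counts (0.694 ± 0.0881 to 3.80 ± 0.982 CPM, log2 fold change 2.41 ± 0.31, adjusted P = 9.8e-05). Even so, the highest JVM2-2B17 library, at 4.63 CPM, stayed far below the lowest MEC1 library, at 191 CPM. The 2 effects differed by -2.16 ± 0.27 (adjusted P = 3.2e-06). IL18RAP, the accessory chain, fell in MEC1 from 6.65 ± 0.251 to 5.20 ± 0.555 CPM (-0.36 ± 0.10, adjusted P = 0.0064).

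In the other members of the beta common group, IL5RA, the IL-5 binding chain (chromosome 3, 3066324 to 3126613), fell in MEC1 from 4.13, 4.12 and 3.52 CPM to 2.13, 1.87 and 1.86 CPM (-1.01 ± 0.13, adjusted P = 4.7e-06). It is not listed in JVM2. The signalling chain of both receptors, CSF2RB, also fell in MEC1, from 1.23 ± 0.212 to 0.523 ± 0.245 CPM (-1.24 ± 0.27, adjusted P = 0.0011), and did not pass in JVM2.

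In JVM2 the IL-1 receptors IL1R1 and IL1R2 rose and the ligand IL1A fell. IL1R1 rose from 22.2, 24.7 and 19.6 CPM to 38.3, 40.2 and 40.9 CPM (0.84 ± 0.09, adjusted P = 2.6e-05). IL1R2, a decoy receptor without a signalling domain, rose from 3.18, 2.70 and 3.50 CPM to 6.24, 6.52 and 6.66 CPM (1.05 ± 0.17, adjusted P = 0.0005). IL1A fell from 8.26, 8.94 and 7.52 CPM to 2.80, 3.60 and 4.40 CPM (-1.21 ± 0.18, adjusted P = 0.00028). Arms did not overlap for these 3 genes. IL1B, the inducible secreted form of IL-1, was under the filter, with 9, 15 and 13 counts in JVM2-CTRL and 2, 0 and 0 in JVM2-2B17, at least 3.87-fold lower against the floor of 3 counts per library. The accessory chain IL1RAP did not pass in JVM2 (-0.46 ± 0.28).

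In MEC1, where the IL-1 receptor is scarce, IL1R1 went from 0.499, 0.639 and 0.722 CPM to 0.385, 0.367 and 0.189 CPM (-0.96 ± 0.31, adjusted P = 0.019). This fall rested on 19, 22 and 24 counts against 13, 12 and 6. It was lost with DESeq2 (0.088) and without MEC1-CTRL replicate 2 (0.053), MEC1-CTRL replicate 3 (0.07) or MEC1-2B17 replicate 3 (0.11). The effects differed between lines by -1.78 ± 0.31 (adjusted P = 0.00018). IL1RAP fell from 5.46 ± 0.540 to 4.40 ± 0.164 CPM (-0.31 ± 0.11, adjusted P = 0.024), a call lost with DESeq2 (0.075) and without MEC1-CTRL replicate 2 or MEC1-2B17 replicate 1 or 3 (up to 0.13). In JVM2 IL1RAPL1, a relative of IL1RAP known mainly from neurons, went from 3.61 ± 0.328 to 2.26 ± 0.509 CPM (-0.69 ± 0.22, adjusted P = 0.034). This was lost with DESeq2 (0.14) and without any one library other than JVM2-2B17 replicate 2 (up to 0.13).

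In the IL-10 axis IL10 and IL10RB fell in MEC1 and IL10RA fell in JVM2. IL10 fell in MEC1 from 22.0, 20.9 and 23.0 CPM to 14.5, 13.4 and 11.9 CPM (-0.72 ± 0.07, adjusted P = 9.1e-08). In JVM2 it had 12, 5 and 11 counts against 17, 12 and 13 (0.65 ± 0.35, adjusted P = 0.2), and the effects differed by -1.37 ± 0.37 (adjusted P = 0.0068). IL10RA, the IL-10 binding chain (chromosome 11, 117986370 to 118003037), fell in JVM2 from 23.9, 22.3 and 20.9 CPM to 11.04, 9.89 and 12.2 CPM (-1.02 ± 0.11, adjusted P = 2.1e-05). It did not pass in MEC1 (-0.14 ± 0.07, adjusted P = 0.098), and the effects differed by 0.88 ± 0.14 (adjusted P = 5.9e-05). IL10RB fell in MEC1 from 45.7 ± 1.80 to 37.4 ± 1.99 CPM (-0.29 ± 0.05, adjusted P = 0.00013), and its effects differed by -0.46 ± 0.09 (adjusted P = 0.00064).

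IL19, an IL-10 relative whose gene overlaps that of IL10, fell in MEC1 from 3.11 ± 0.125 to 1.95 ± 0.0711 CPM (-0.68 ± 0.13, adjusted P = 0.00035). IL20RB, a chain of the receptors for IL-19, IL-20 and IL-24, went from 0.383 ± 0.106 to 0.652 ± 0.151 CPM (0.78 ± 0.30, adjusted P = 0.042). That call was lost with DESeq2 (0.16), with no filter on low counts (0.054) and without MEC1-CTRL replicate 1 or 3 or MEC1-2B17 replicate 2 or 3 (up to 0.20).

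Members outside these families also split by line. IL16, a chemoattractant for CD4+ cells made as a long precursor, fell in MEC1 from 234, 240 and 228 CPM to 195, 201 and 197 CPM (-0.24 ± 0.04, adjusted P = 1.5e-05). In JVM2 it rose from 68.2, 61.5 and 66.9 CPM to 117, 106 and 111 CPM (0.76 ± 0.07, adjusted P = 2.9e-06). The effects differed by -1.004 ± 0.08 (adjusted P = 2.3e-09), and STARD5 on the opposite strand covers 34.9% of the IL16 exon bases. IL32, an intracellular pro-inflammatory protein, fell in MEC1 from 34.8 ± 0.615 to 27.8 ± 3.19 CPM (-0.32 ± 0.06, adjusted P = 0.00042). IL4I1, an amino acid oxidase induced by IL-4 in B cells, rose in MEC1 from 22.8 ± 1.95 to 30.8 ± 2.39 CPM (0.43 ± 0.07, adjusted P = 3.2e-05). Both differed between the lines, by -0.51 ± 0.14 (adjusted P = 0.01) and 0.39 ± 0.10 (adjusted P = 0.0058). NUP62 on the same strand covers 13.5% of the IL4I1 exon bases.

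Set side by side, of the 27 members tested in both lines 9 passed in both, 7 in MEC1 alone, 4 in JVM2 alone and 7 in neither. Of the 9, IL18R1, IL21R and IL3RA moved the same way (11.1% of members, against 8.37% of genes tested in both) and IL12RB1, IL16, IL1R1, IL4R, IL7 and IL7R opposite ways (22.2%, against 7.43%). Of those 6 only IL16 and IL7R kept both calls in all alternatives run. By the interaction of line and arm 18 of 39 members responded differently in the lines, against 32.0% of all genes tested. The effect was lower in MEC1 in 13 of the 18 and higher in 5. Of all genes 16.7% were lower and 15.3% higher in MEC1. Among the 27 members 14 responded differently (51.9%), against 36.5%.

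Promoter sequence is shown for the members with the largest rise and fall in each line (IL12RB2, IL9R, IL18R1 and IL12B), for IL3RA, which rose in both, and for IL7R, which moved in opposite directions. Each run is the 250 bases before the most upstream RefSeq start on GRCh38.p14, read 5′ to 3′ on the strand of the gene. Capitals mark matches to any of 6 motifs searched on both strands: STAT (TTCNNNGAA), NF-kappaB (GGGA and TTCC with 2 bases between), IRF (GAAA and GAAA with 2 bases between), AP-1 (TGANTCA), octamer (ATGCAAAT) and EBF (TCCC and GGGA with 2 bases between).
IL12RB2 (chr1:67307114-67307363, plus strand): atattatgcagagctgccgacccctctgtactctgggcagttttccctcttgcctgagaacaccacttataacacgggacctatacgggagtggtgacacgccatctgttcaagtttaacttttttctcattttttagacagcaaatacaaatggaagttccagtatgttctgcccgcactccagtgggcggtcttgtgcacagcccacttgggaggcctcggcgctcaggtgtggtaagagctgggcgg
IL9R (chrX:155997446-155997695, plus strand): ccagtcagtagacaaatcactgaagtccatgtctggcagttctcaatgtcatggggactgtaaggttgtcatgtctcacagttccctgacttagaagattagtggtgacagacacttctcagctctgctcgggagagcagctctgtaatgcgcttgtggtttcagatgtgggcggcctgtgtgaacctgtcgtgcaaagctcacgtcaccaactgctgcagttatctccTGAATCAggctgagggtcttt
IL18R1 (chr2:102355546-102355795, plus strand): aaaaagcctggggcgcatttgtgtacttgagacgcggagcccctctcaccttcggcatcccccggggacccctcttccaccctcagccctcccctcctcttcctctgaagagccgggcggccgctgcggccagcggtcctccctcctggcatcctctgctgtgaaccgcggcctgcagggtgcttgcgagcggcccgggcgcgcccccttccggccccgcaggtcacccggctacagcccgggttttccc
IL12B (chr5:159330488-159330737, minus strand): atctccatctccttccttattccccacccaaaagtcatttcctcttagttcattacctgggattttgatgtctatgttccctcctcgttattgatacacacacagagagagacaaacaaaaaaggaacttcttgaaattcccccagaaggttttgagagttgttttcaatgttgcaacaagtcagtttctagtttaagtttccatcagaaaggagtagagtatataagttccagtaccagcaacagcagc
IL3RA (chrX:1336535-1336784, plus strand): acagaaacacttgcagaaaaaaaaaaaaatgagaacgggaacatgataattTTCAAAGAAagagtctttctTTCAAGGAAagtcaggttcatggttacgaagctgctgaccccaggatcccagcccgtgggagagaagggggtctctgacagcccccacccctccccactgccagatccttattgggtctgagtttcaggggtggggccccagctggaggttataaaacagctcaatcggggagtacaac
IL7R (chr5:35856641-35856890, plus strand): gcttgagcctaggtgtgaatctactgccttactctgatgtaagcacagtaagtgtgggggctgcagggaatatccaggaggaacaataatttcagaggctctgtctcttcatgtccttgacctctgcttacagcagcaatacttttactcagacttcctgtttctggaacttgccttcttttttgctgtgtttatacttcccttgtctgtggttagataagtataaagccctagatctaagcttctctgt

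IL3RA held 2 STAT matches, 199 and 179 bases before the start, and IL9R 1 AP-1 match 21 bases before it. The other 4 sequences held none of these letters. Among 48 members with such a region, 4 held the STAT motif (8.33%, against 6.57% of 34961 regions), 7 the AP-1 motif (14.6%, against 6.54%), 3 the NF-kappaB motif (6.25%, against 1.40%), 4 the IRF motif (8.33%, against 3.02%), 2 the octamer (4.17%, against 1.63%) and 0 the EBF motif, which 1.06% of regions held. Each member was taken at its most upstream start only, while the 34961 regions were not reduced to 1 per gene, so the shares are of unlike sets. A match is a run of letters and not a site shown to be bound.

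The JAK and STAT genes through which most of these receptors signal were compared in the same way. In MEC1 7 of 10 passed, 2 higher and 5 lower, against 41.7% of all genes, and in JVM2 4 of 9, 1 higher and 3 lower, against 29.3%. JAK1, which binds gamma chain, gp130 and IL-10 receptors, rose in both, at 488 ± 21.7 and 610 ± 11.7 CPM in the MEC1 arms (0.32 ± 0.04) and 168 ± 0.823 and 257 ± 11.7 CPM in the JVM2 arms (0.62 ± 0.06). STAT2, a factor of interferon signalling, fell in both, by 0.18 on the log2 scale in MEC1 and by 0.26 in JVM2. JAK3, the kinase bound to the gamma chain, went opposite ways, up by 0.22 ± 0.03 in MEC1 (adjusted P = 5.1e-05) and with a change of -0.44 ± 0.07 in JVM2 cells (adjusted P = 0.00068).

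Around the IL-12 receptor in MEC1, the rise of IL12RB2 stood beside falls of JAK2, from 19.3 ± 1.16 to 13.0 ± 0.694 CPM (-0.57 ± 0.07, adjusted P = 1.1e-06), and of STAT4, from 11.6 ± 1.298 to 6.90 ± 0.557 CPM (-0.75 ± 0.09, adjusted P = 2.3e-06). TYK2, which binds IL12RB1, fell by 0.12 on the log2 scale (adjusted P = 0.0097). TBX21, a transcription factor known to raise IL12RB2 in T and NK cells, fell in MEC1 from 56.2 ± 2.07 to 36.5 ± 1.24 CPM (-0.62 ± 0.05, adjusted P = 2.7e-09) and rose in JVM2 from 22.2 ± 1.28 to 27.3 ± 0.597 CPM (0.30 ± 0.08, adjusted P = 0.018). STAT4 is not listed in JVM2. STAT6, the factor of IL-4 signalling, fell in MEC1 (-0.25 ± 0.04, adjusted P = 2.4e-05), STAT5A fell in JVM2 (-0.27 ± 0.06, adjusted P = 0.0045), and STAT3 and STAT5B passed in neither line.

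**Figure D4:**
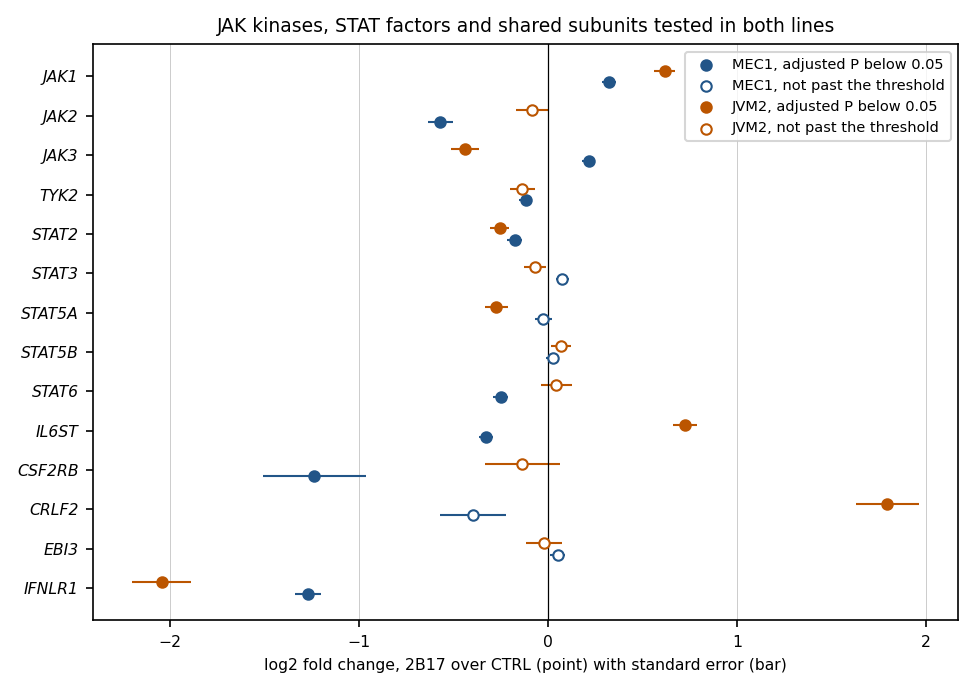
Log2 fold change of 2B17 over CTRL cells for JAK kinases, STAT factors and further receptor or cytokine subunits tested in both lines. Bars are standard errors and filled points passed the threshold. JAK1 is higher and STAT2 and IFNLR1 lower in both lines, while JAK3 and IL6ST moved in opposite directions.

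Of 5 further receptor or cytokine subunits outside the symbol rule 3 fell in MEC1, while in JVM2 2 rose and 1 fell. Of all genes tested, 21.6% were lower in MEC1, and in JVM2 14.1% were higher and 15.3% lower. IL6ST, the gp130 chain of IL-6 and IL-11 receptors, fell in MEC1 from 194 ± 3.76 to 155 ± 4.42 CPM (-0.33 ± 0.04, adjusted P = 5.2e-07) and rose in JVM2 from 116 ± 8.13 to 192 ± 4.45 CPM (0.72 ± 0.06, adjusted P = 3.7e-06). CRLF2, which pairs with IL7R in the TSLP receptor, rose in JVM2 with IL7R, from 4.21 ± 1.10 to 14.5 ± 0.998 CPM (1.80 ± 0.17, adjusted P = 5.4e-06). IFNLR1, which pairs with IL10RB in the interferon lambda receptor, fell in both lines, which left 10.3 ± 0.841 of 24.8 ± 1.40 CPM in MEC1-2B17 (-1.27 ± 0.07, adjusted P = 3.4e-11) and 3.57 ± 0.388 of 14.8 ± 1.89 CPM in JVM2-2B17 (-2.05 ± 0.15, adjusted P = 9.7e-07).

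Downstream, 7 of 16 inhibitors of JAK-STAT signalling passed in MEC1 (2 higher, 5 lower) and 5 of 16 in JVM2 (1 higher, 4 lower). CISH, a feedback inhibitor induced by STAT5, was lower in both (-0.78 ± 0.21 in MEC1 and -0.70 ± 0.22 in JVM2, adjusted P = 0.0059 and 0.031). Of the adaptors and kinases of IL-1 and IL-17 receptors 6 of 13 passed in MEC1 (3 higher, 3 lower) and 3 of 13 in JVM2 (1 higher, 2 lower). The adaptor MYD88 and the kinase IRAK1 were lower in both lines, by 0.14 to 0.35 on the log2 scale, and IRAK3, an inhibitory relative, was higher in both (0.23 ± 0.04 and 0.78 ± 0.12). Of textbook targets of interleukin signals 6 of 7 passed in MEC1 (3 higher, 3 lower) and 4 of 6 in JVM2 (2 higher, 2 lower). FCER2, the IgE receptor induced by IL-4, was higher in both (0.27 ± 0.04 and 0.25 ± 0.08), while the STAT5 target kinases PIM1 and PIM2 rose in MEC1 (0.26 ± 0.06 and 0.42 ± 0.04) and fell in JVM2 (-0.75 ± 0.09 and -0.41 ± 0.06). Over all 5 lists 29 of 51 genes passed in MEC1 and 19 of 49 in JVM2, or 56.9% and 38.8%, against 41.7% and 29.3% of genes at large.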

How the data were processed

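RNA-seq libraries of 12 samples were grouped by their labels into 4 groups of 3. Per the submitters' processing notes the authors used Trimmomatic, TopHat2 2.0.14 and HTSeq on hg38, and they deposited raw read counts per gene for each line. The deposited tables also hold a rounded normalized score per sample, the authors' log2 fold changes and mean log2 CPM, and their edgeR and DESeq2 P-values; these were not used. Strand and library site are not given in the sources used here.

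Each line was fitted with edgeR 4.0.16 in R 4.3.3 (TMM, filterByExpr, quasi-likelihood F-test), and P-values were adjusted by Benjamini-Hochberg over all genes tested with a threshold of 0.05. A joint fit of 12 libraries gave the interaction of line and arm and the control contrast. CPM used TMM-scaled library sizes, and levels per kb used the union of exons in GENCODE 44. On simulated 2-fold changes in 200 genes the tests recovered 89.5% in MEC1 (16581 genes), 92.5% in JVM2 (13021) and 69.5% for the interaction (15130). False calls numbered 19, 21 and 6, beside 179, 185 and 139 genes recovered. Within each line they thus made up more than 0.05 of the calls. Where no library of an arm exceeded 3 counts, folds were given as lower bounds. Alternatives were DESeq2 1.42.0, RLE and library-size scaling, other filters, the rule of both tools, the replicate block and each replicate left out.

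Members past the threshold with a log2 change of at least 1 or in both lines were described in every sample, other calls by means. The members, families and pathway lists were chosen with earlier results of these data known. A gene of one of the pathway lists and a marker are not reported here and were left out of the counts.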

Additional observations from a re-analysis of the deposited data

Results flagged for a closer look

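The response to high UGT2B17 differed between the lines in 18 members by the interaction test over 12 libraries (edgeR, MEC1 effect minus JVM2 effect on the log2 scale). Among all genes tested it differed in 32.0%, lower in MEC1 in 16.7% and higher in 15.3%. It was lower in MEC1 for IL18R1 (-2.16), IL7R (-2.09), IL2RA (-2.07), IL1R1 (-1.78), IL3RA (-1.73), IL9R (-1.69), IL10 (-1.37), IL16 (-1.004), IL7 (-0.96), IL32 (-0.51), IL10RB (-0.46), IL4R (-0.42) and IL27RA (-0.32). It was higher in MEC1 for IL1B (3.79), IL23R (2.21), IL10RA (0.88), IL12RB1 (0.62) and IL4I1 (0.39). The values for IL1B and IL2RA rest on arms with at most 3 counts in each library and depend on the prior count of the fit, and neither is a bound. With 1 library left out at a time, IL1B ran from 3.29 to 7.69, the highest value without JVM2-2B17 replicate 1, and kept its call. IL2RA ran from -3.20, without MEC1-2B17 replicate 2, to -1.57, without MEC1-2B17 replicate 3. IL2RA lost its call without MEC1-CTRL replicate 3, MEC1-2B17 replicate 1 or MEC1-2B17 replicate 3 (adjusted P = 0.076, 0.076 and 0.092). IL9R lost its call without JVM2-2B17 replicate 1 or 3.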

How the results depend on the processing

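Leaving out each library in turn gave 20 to 23 members past the threshold in MEC1 against 24, 12 to 18 in JVM2 against 16, 17 to 20 for the interaction against 18, and 24 to 27 between the control groups against 26. DESeq2 gave 19, 13, 18 and 25, and requiring both tools gave 19 in MEC1 and 13 in JVM2. With at least 10 counts in every library 17 members differed between the control groups, since 22 and not 39 were then tested; 15 of the 17 were among the 26. Of the calls, 18 of 24 in MEC1, 11 of 16 in JVM2, 16 of 18 for the interaction and 24 of 26 between the control groups were kept in all settings run, and no member changed direction. IL11RA, higher in MEC1-CTRL, was lost without JVM2-CTRL replicate 3 (log2 difference 0.52, adjusted P = 0.11). Same-numbered replicates shared only a number: their deviations correlated at -0.07, -0.03 and 0.05 in MEC1 and at 0.10, 0.13 and -0.01 in JVM2. With the replicate block 25 members passed in MEC1, 17 in JVM2 and 20 for the interaction. Depth limited the members under the filter, which in JVM2 included IL1B, IL9R and IL23R.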

Other observations

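Several members are neighbours in the genome, grouped here within 500 kb after their values were seen (GENCODE 44 positions, GRCh38). On chromosome 1 IL23R and IL12RB2, 47.4 kb apart, both rose in MEC1. IL10 and IL19, also on chromosome 1 and overlapping, both fell there. On chromosome 2 IL1R2, IL1R1 and IL18R1 all rose in JVM2 (log2 fold changes 1.05, 0.84 and 2.41). In MEC1 the same cluster was mixed, with IL1R1 at -0.96, IL18R1 at 0.25, IL18RAP at -0.36 and IL1R2 at 0.34, the last not past the threshold. On chromosome 16 IL4R and IL21R, 37.4 kb apart, both fell in MEC1 (-0.14 and -0.26) and moved in opposite directions in JVM2 (0.29 and -0.23).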
